A study of Oryza sativa with 2 samples.

Results

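The tags described are OsSC1 to OsSC242, the features of a rice (Oryza sativa) tag array whose identifier is the prefix OsSC with a number up to and including that of OsSC242. The rule uses the identifier alone and no intensity, but it was set with earlier results of these data known. Every number in that run was present once, and the tags make up 24.2% of the 1000 features in the table and 50% of the 484 with the OsSC prefix. The array is built on SuperSAGE, a sequencing method that stands for a transcript by a short tag from near its 3′ end, and each feature is an oligonucleotide of 26 bases with the sequence of 1 tag. The 2 groups were leaf, named mature leaf in the series title, with 1 array, and suspension-cultured cells, with 1 array. Cultivar, plant age, growth conditions and the origin of the culture were not given in the labels. Total RNA was copied into biotin-labelled cRNA in both cases, so each array carried 1 colour. With 1 array a group there was no replicate error to set a difference against, no test was made, and sample and array cannot be told apart.

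A plant suspension culture consists of cells that grow and divide in liquid medium and are usually fed sugar, without the organised tissues of a plant. A mature leaf has ended most of its cell division and consists largely of photosynthetic mesophyll, with epidermis and veins. Genes for growth and division are commonly read more in such cultures, and genes for photosynthesis more in leaf, but which genes the OsSC tags come from is not known here. The table pairs no identifier with a sequence or a gene name, and 0 of the identifiers matched a name or accession among 39387 genes of the rice assembly ASM3414082v1. For that reason no tag sequence is shown, no gene or pathway is named, and neither sample could be checked against markers of its tissue. The labels do not say what the prefix or the number stands for. Should the prefix mark tags collected from cultured cells, a lean towards cells would not be independent evidence about the samples.

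Over the whole table, leaf had a median intensity of 1181 with quartiles of 286.3 and 4752, and cells had a median of 1153 with quartiles of 234.4 and 4347. The lowest values were 76.5 in leaf and 58.4 in cells, and no background reading or detection call accompanies them. A feature in the lowest quartile class of an array, taken over all features, is called dim there, and one in the highest class bright. Binding strength differs from probe to probe, so levels and ranks describe signal and not the abundance of transcripts.

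OsSC1 to OsSC242 had higher signal in cells than in leaf, and 115 of them (47.5%) were bright in cells, where 25% of all features are by definition. On the cell array their median intensity was 4030.2, or 11.98 on the log2 scale, with quartiles of 1581 and 9433 and a range from 101.9 to 51275. On the leaf array the median was 839, or 9.71 on the log2 scale, with quartiles of 210.2 and 2250 and a range from 76.5 to 17335. The interquartile ranges thus overlapped only between 1581 and 2250. The brightest feature of the cell array was one of these tags, and they held 10 of its 20 brightest and 54 of its 100 brightest features. On the leaf array they held 0 of the 20 brightest and 4 of the 100 brightest. The other OsSC tags held 3 and 16 on the cell array and, much like the set, 0 and 3 on the leaf array. In percentiles of each array, which do not depend on how the arrays are scaled to each other, the median tag stood at 72.7 in cells and at 41.8 in leaf. The other OsSC tags had medians of 56.5 and 37.0 in the same order. Those of the Osconst features, another identifier class of the array, were 70.9 and 60.1. The rank was lower in leaf than in cells for 231 tags of the set (95.5%). The share was 62.5% of all features, 87.2% of the other OsSC tags and 82.1% of the Osconst features. Ranks and percentiles do depend on the other features of an array. The OsL tags, a further identifier class, held 86 of the 100 brightest features in leaf and 17 in cells.

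The OsSC tags with higher numbers, equally many, were dimmer in cells and less so in leaf. Their median intensity was 1824 in cells and 604 in leaf. Bright signals in cells were seen for 115 of the lower-numbered tags, compared with 53 of the higher-numbered ones. In leaf the counts of bright tags were 34 and 19, and those of dim tags 74 and 86. The lower-numbered tags carried 44.6% of the summed intensity of the cell array and 10.5% of that of the leaf array. The corresponding shares of the higher-numbered tags were 21.7% and 8.92%. Such sums follow the brightest probes, since the 10 brightest lower-numbered tags gave 19.2% of their sum in cells and 27.0% in leaf.

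**Figure D1:**
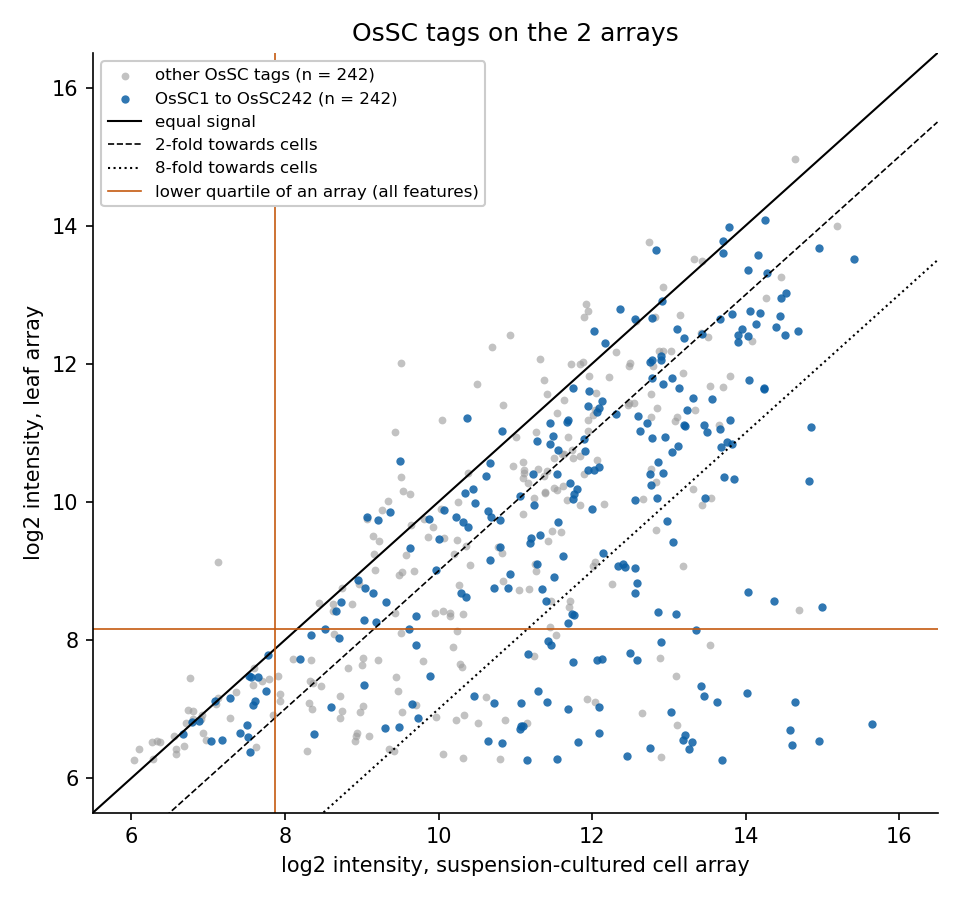
Log2 intensity on the leaf array (vertical axis) against log2 intensity on the suspension-cultured cell array (horizontal axis), 1 point per OsSC tag, blue for OsSC1 to OsSC242 and grey for the other OsSC tags. The solid line marks equal signal, the dashed and dotted lines 2-fold and 8-fold higher signal in cells, and the orange lines the lower quartile of each array; 225 of the blue points lie below the solid line and 64 at or below the dotted one.

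Signal was higher in cells for 225 of the lower-numbered tags (93.0%) and higher in leaf for 17 (7.02%). The share with higher signal in cells was 56.1% over all features, 79.8% over the higher-numbered OsSC tags and 74.4% over the Osconst features. Taken as leaf minus cells on the log2 scale, the median difference was -1.62, with quartiles of -3.30 and -0.63 and a range from -8.87 to 1.09. Over all 1000 features the median was -0.25, and over the higher-numbered OsSC tags it was -0.98, which puts the gap between the 2 OsSC sets at -0.64. The SD of the differences over tags was 2.01 in the lower-numbered set and 1.53 in the other, which is spread among tags and not an error of measurement.

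At least 2-fold higher signal in cells was found for 155 of the lower-numbered tags (64.0%), where the background share was 32.4% of all features and 49.2% of the higher-numbered OsSC tags. Another 86 tags (35.5%) lay within 2-fold, as did 41.9% of all features, 47.5% of the higher-numbered tags and 65.4% of the Osconst features. Only 1 tag was at least 2-fold higher in leaf, where the background was 25.7% of all features and 3.31% of the higher-numbered tags. This was OsSC69, with 1538 in leaf against 722 in cells (log2 difference 1.09), named after its values were seen because it stood alone. Differences of at least 8-fold towards cells were held by 64 tags (26.4%), where the background was 9.8% of all features and 12.8% of the higher-numbered tags. Those of at least 32-fold were held by 25 tags (10.3%), where the background was 3.2% and 2.89%. No tag of the set was at least 8-fold higher in leaf, as 16.2% of all features were. The shares over all features include the set itself and the OsL tags, a class of 438 features that leaned to leaf with a median of 1.78.

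**Figure D2:**
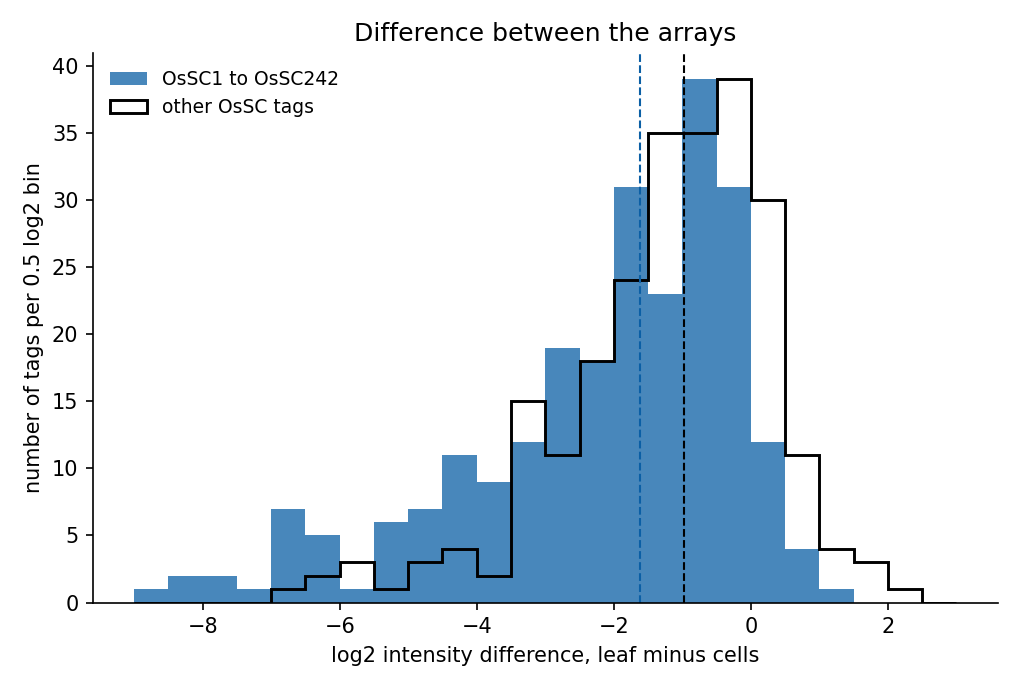
Number of tags (vertical axis) per 0.5 step of log2 intensity difference, leaf minus cells (horizontal axis), filled blue for OsSC1 to OsSC242 and as a black outline for the other OsSC tags, with dashed lines at their medians of -1.62 and -0.98. The blue bars extend further to the left, where 25 lower-numbered and 7 higher-numbered tags lie at or below -5.

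How much signal the tags kept in leaf was expressed as leaf intensity in percent of cell intensity. The median tag kept 32.5%, with quartiles of 10.2% and 64.5%. Among the higher-numbered OsSC tags the median was 50.8%, with quartiles of 25.3% and 90.1%. The lower-numbered set ranged from tags that lost nearly all signal to tags that kept all of it. Under 10% was kept by 60 tags (24.8%), compared with 8.6% of all features and 24 of the higher-numbered tags (9.92%). Between 10% and 50% was kept by 95 tags (39.3%) in either set, compared with 23.8% of all features. From there to 100% the counts were 70 (28.9%) and 74 (30.6%), where the share of all features was 23.7%. Over 100% was kept by 17 lower-numbered and 49 higher-numbered tags (20.2%), where the share of all features was 43.9%. The sets thus differed in count mainly at the low and high ends.

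Tags that kept under 10% were bright in cells for the most part, and most were dim in leaf. Choosing tags by a low ratio of leaf to cells favours both by construction. These 60 tags had a median of 6135 in cells and 152 in leaf, with 38 of them bright in cells and 42 dim in leaf. Of the 64 tags at least 8-fold higher in cells, 43 were dim in leaf, with leaf intensities from 76.5 to 283.7. Whether such readings lie above background is unknown, so the size of their ratios depends on the floor of the leaf array. The remaining 21 were dim on neither array. Their leaf intensities ran from 303 to 2180.3 and their cell intensities from 3285 to 32534, with a median log2 difference of -3.52. When every value below the lower quartile of its array was set to that quartile, 55 of the lower-numbered and 20 of the higher-numbered tags were still at least 8-fold higher in cells. With the Osconst median as the centre the 8-fold counts were 47 and 14, and 62 over all features, so the background counts of 31 and 98 depended on the scaling by over 1.5 times.

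A set of 23 tags (9.50%) was bright in cells and dim in leaf, compared with 2.9% of all features and 6 of the higher-numbered tags (2.48%). Their cell intensities ran from 4351 to 51275 with a median of 10123, and their leaf intensities from 76.6 to 283.7 with a median of 109.9. The highest leaf reading among them was below the lowest cell reading, as the choice of tags makes it. The median log2 difference was -6.53, and the tags kept from 0.214% to 4.72% of the cell signal in leaf. Of the 23, 18 lay in the run from OsSC1 to OsSC121 and 5 in the run from OsSC122 to OsSC242.

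OsSC13 had the largest difference of the set, at 51275 in cells against 109.9 in leaf (log2 difference -8.87). It kept 0.214% of its cell signal and ranked 1 of 1000 in cells and 917 in leaf. OsSC19 came next at 31700.0 in cells against 93.3 in leaf (log2 difference -8.41), and ranked 9 in cells and 954 in leaf. Both were bright in cells and dim in leaf, where ratios depend on the floor. With the floor raised as above, the log2 differences were -7.48 and -6.79.

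Other tags of the set were bright in both samples. The 33 that were bright on both arrays had a median of 15835 in cells and 6745 in leaf. They were 13.6% of the set, near the 10.8% of all features that were bright on both arrays, above the 5.79% of the higher-numbered tags (14 tags) and below the 28.2% of the Osconst features. Their median log2 difference was -1.01, with a range from -2.21 to 0.82, which the requirement of bright signal on both arrays limits by construction. Within 2-fold lay 15 of the 33, and the other 18 were at least 2-fold higher in cells. OsSC6 had the brightest leaf signal of the set, at 17335 in leaf against 19527 in cells (log2 difference -0.17). OsSC7 had 16112 in leaf against 14094 in cells (log2 difference 0.19). Both tags lay within 2-fold, and the sign of each changed with the scaling: OsSC6 turned positive with the median of all features or of the Osconst features as the centre, and OsSC7 turned negative after quantile normalization. OsSC6 ranked 71 in leaf and 37 in cells, and OsSC7 ranked 80 and 68. The 4 tags of the set among the 100 brightest of the leaf array all lay in the run from OsSC1 to OsSC121, as did 8 of the 10 among the 20 brightest of the cell array.

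A group of 18 tags (7.44%) was dim on both arrays, where the share was 11.8% of all features and 12.0% of the higher-numbered tags, with leaf intensities between 83.5 and 219.5 and cell intensities between 101.9 and 218.8. Of these, 17 lay within 2-fold, which does not show like expression, since signal over background is unknown.

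The 17 tags with higher signal in leaf were mostly close to equal. Their log2 differences ran from 0.0046 to 1.09 with a median of 0.19, and 16 of them lay within 2-fold. Their median intensity was 2377 in leaf and 1824 in cells, so in cells they were dimmer than the median tag of the set. Choosing tags by higher signal in leaf favours low readings in cells. Among the higher-numbered tags 49 had the higher signal in leaf, 8 of them by at least 2-fold.

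Signals on the 2 arrays were related across the tags. The Pearson correlation of log2 intensities was 0.53 over the lower-numbered and 0.72 over the higher-numbered tags, and the Spearman correlations were 0.51 and 0.71. These describe tags of a single pair of arrays, which share both hybridisations, and the correlations were not tested against each other.

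Tags that were brighter in cells kept less in leaf. In the lower-numbered set, the median log2 difference was -0.33 for the 18 tags in the lowest quartile class of the cell array, -0.61 for 32 in the lower middle class, -1.64 for 77 in the upper middle class and -2.32 for 115 in the highest. The median leaf signal kept was 80.04% in the lowest class and 20.04% in the highest. For the higher-numbered tags the median differences were -0.01 (30 tags), -0.82 (69 tags), -1.21 (90 tags) and -1.48 (53 tags). The lower-numbered tags therefore lay lower than the higher-numbered ones in the lowest, upper middle and highest classes, and higher in the lower middle class. Within the highest class, 93 of 115 lower-numbered tags (80.9%) and 36 of 53 higher-numbered ones (67.9%) were at least 2-fold higher in cells. Grouping tags by one of the arrays compared tilts the differences by construction, as high readings on that array enter the difference.

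**Figure D3:**
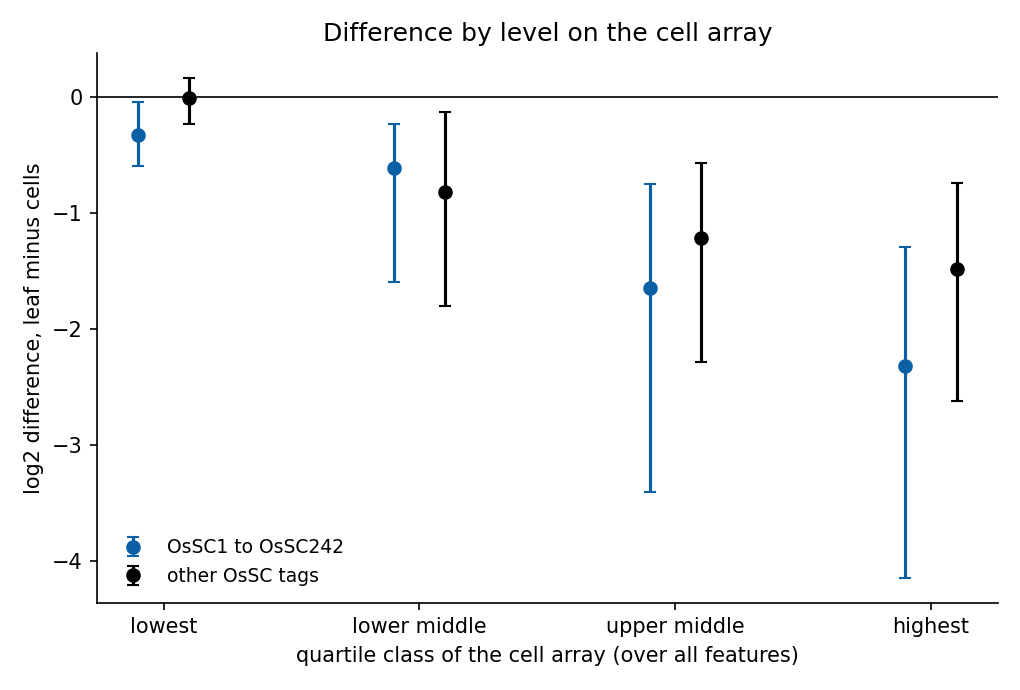
Median log2 difference, leaf minus cells (vertical axis), of OsSC tags in each quartile class of the cell array over all features (horizontal axis), blue for OsSC1 to OsSC242 and black for the other OsSC tags; bars run from the lower to the upper quartile of the tags and are not errors. The blue medians run from -0.33 to -2.32 and lie below the black ones except in the lower middle class.

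Because the lower-numbered tags were brighter in cells, the gap of -0.64 to the higher-numbered ones was also taken at like levels, a choice made after seeing the data. Averaged over quartile classes of the cell array, with each class weighted by its number of OsSC tags, the gap was -0.43. It was -0.84 over classes of the mean log2 level of both arrays and -1.30 over classes of the leaf array. The averaged gap kept its sign on each of these measures, while its size depended on which was used. Among tags of like leaf signal, brighter cell signal makes the difference more negative by construction, and the mean level also holds both readings. The shared sign is therefore no separate support for the gap. Within the lower middle class of the cell array the gap was 0.21. Within the classes of the mean level it was 0.05 in the lowest, -1.87 in the lower middle, -0.85 in the upper middle and -0.67 in the highest. In that lower middle class, 58 lower-numbered tags had a median difference of -3.32 and kept 10.01% of their cell signal, while 58 higher-numbered tags had -1.45 and kept 36.7%.

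Along the identifier numbers the difference was uneven within the set. OsSC1 to OsSC40 had a median log2 difference of -2.18, with median intensities of 4074 in cells and 442 in leaf. OsSC41 to OsSC80 had -2.06, with 5832 in cells and 988 in leaf. The median was -1.23 in OsSC81 to OsSC120, with 2391 in cells and 532 in leaf. It was -1.49 in OsSC121 to OsSC160, where the median intensities of 7312 in cells and 1602 in leaf were the highest of the 6 runs on both arrays. OsSC161 to OsSC200 had -2.12, with 4484 in cells and 695 in leaf, and OsSC201 to OsSC242 had -1.33, with 3006 in cells and 693 in leaf. The median leaf signal kept was lowest in the first of these runs, at 22.3%, and highest in OsSC81 to OsSC120, at 42.7%. The Spearman correlation of number and difference was 0.18 over the lower-numbered tags and 0.04 over the higher-numbered ones, given as a description.

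The largest differences were more frequent among the lowest numbers. At least 8-fold higher signal in cells was seen for 17 of the first 40 tags, then for 13, 9, 6 and 11 in the following runs of 40 and for 8 of the last 42. These are 42.5%, 32.5%, 22.5%, 15%, 27.5% and 19.0%. The background was 9.8% of all features, 12.4% of OsSC243 to OsSC363 and 13.2% of OsSC364 to OsSC484. The SD of the differences over tags was 2.51 in OsSC1 to OsSC40 and 1.58 in OsSC201 to OsSC242. Of the 64 tags at least 8-fold higher in cells, 39 lay in OsSC1 to OsSC121 and 25 in OsSC122 to OsSC242, while the counts at 2-fold, 79 and 76, were nearly alike. Tags bright on both arrays numbered 13 in the first of these runs and 20 in the second.

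The division after OsSC242 falls within this uneven course. OsSC242, the last inside, had 427 in leaf against 2613 in cells (log2 difference -2.61). OsSC243, the first outside, had 1592 in leaf against 2917 in cells (log2 difference -0.87). In 4 runs of equal length, the median difference was -1.80 in OsSC1 to OsSC121, -1.56 in OsSC122 to OsSC242, -0.97 in OsSC243 to OsSC363 and -1.001 in OsSC364 to OsSC484. Median cell intensity over these runs was 3573, 4356, 2217 and 1213, and median leaf intensity was 597, 1007, 906 and 378.

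**Figure D4:**
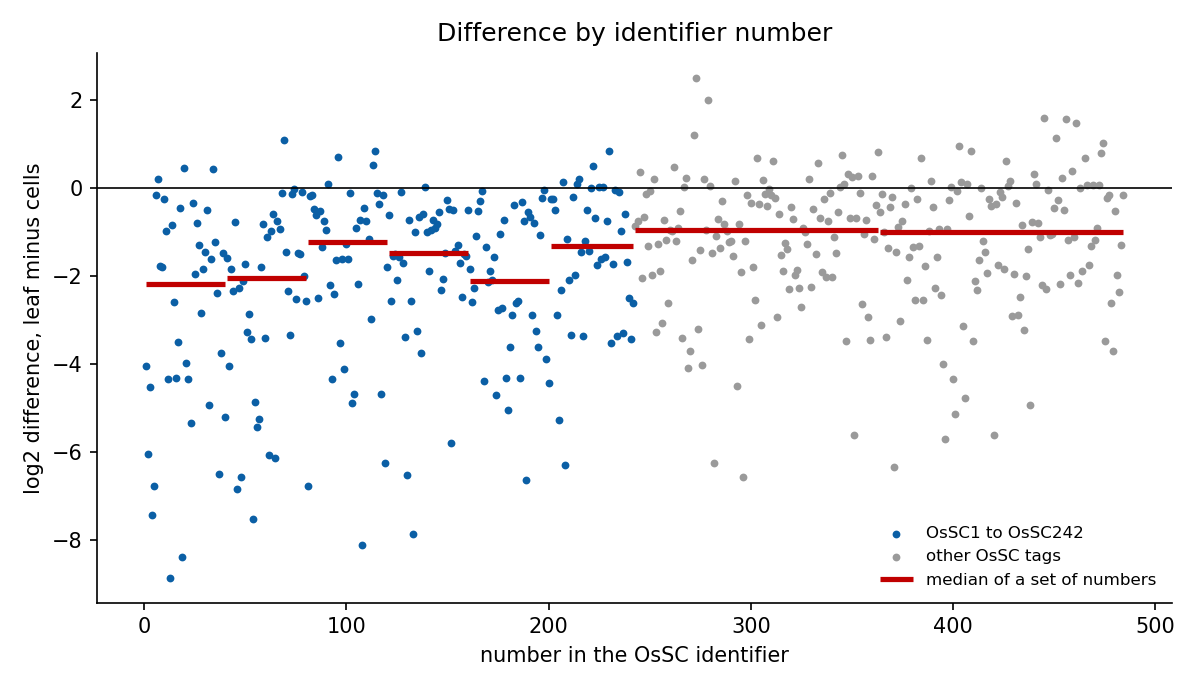
Log2 difference, leaf minus cells (vertical axis), against the number in the OsSC identifier (horizontal axis), 1 point per tag, blue for OsSC1 to OsSC242 and grey for higher numbers. Red lines mark medians of runs of consecutive numbers; in the blue part they lie between -2.18 and -1.23 and in the grey part at -0.97 and -1.001, and 25 of the 32 points at or below -5 are blue.

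The lean of the set towards cells held under each of 4 ways of scaling the arrays, with a size that depended on the scaling. The median difference was -1.37 after centring on all features, -1.77 after quantile normalization and -1.24 with a loess curve on mean level removed. It was -0.88 after centring on the 78 Osconst features, whose own median was -0.74 as deposited, and the median tag then kept 54.3% of its cell signal in leaf. The count of tags at least 2-fold higher in cells, 155 as deposited, became 145, 162, 132 and 114 in that order. Among the higher-numbered tags this count, 119 as deposited, became 101, 123, 93 and 77. The count towards leaf, 1 as deposited, became 3, 1, 4 and 8. Among the higher-numbered tags it was 8 as deposited and became 13, 7, 19 and 24. Shares of all features at 2-fold are given here only as deposited. The higher-numbered OsSC tags had medians of -0.73, -1.03, -0.47 and -0.24 in the same order. Centring by a constant leaves the gap between the OsSC sets at -0.64 by construction, and the gap was -0.73 after quantile normalization and -0.77 after loess. The median of all features was -0.25 as deposited and 0.49 with Osconst as the centre.

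**Figure D5:**
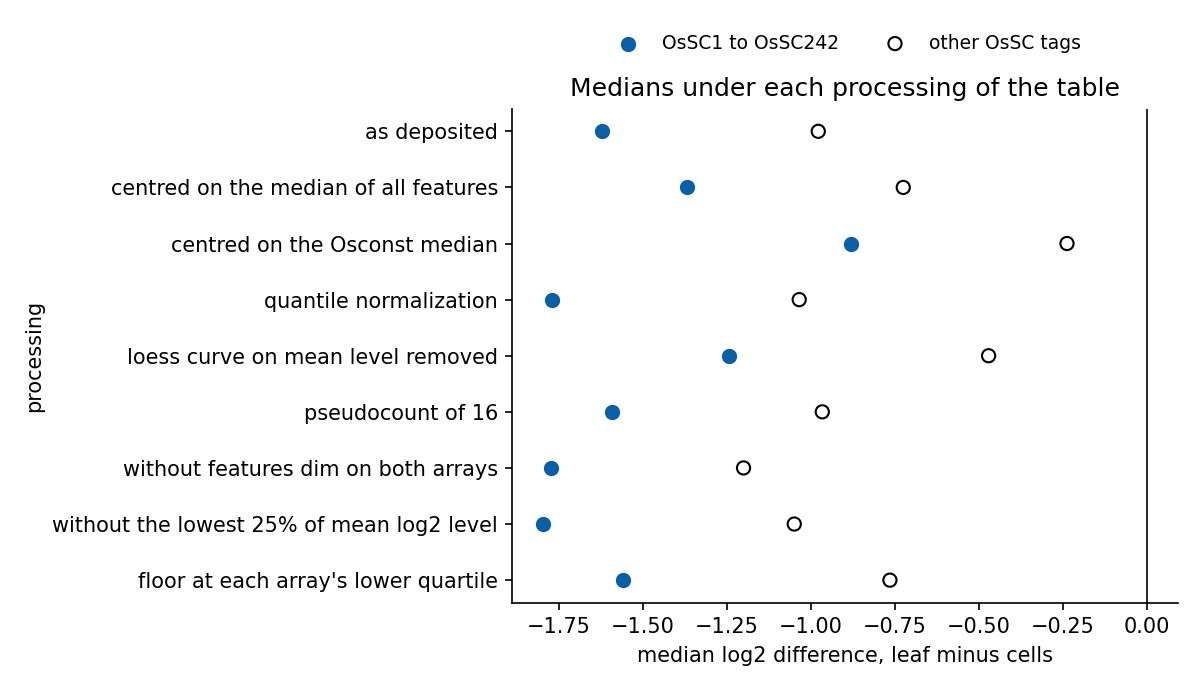
Median log2 difference, leaf minus cells (horizontal axis), of OsSC1 to OsSC242 (blue) and of the other OsSC tags (open circles) under each processing of the table (vertical axis). The blue medians run from -1.80 to -0.88 and lie to the left of the open circles in each row.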

How the data were processed

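The authors deposited a table of linear intensities, with 1 value for each of 1000 features on each of the 2 arrays and 0 missing values. Per the submitters' processing notes the software was RMA, which covers background correction, normalization and probe summary, with version, settings and later scaling not given in the sources used here. Since RMA output is commonly in log2, the linear scale was inferred from the range of the values. RMA can distort ratios of dim features.

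From the intensities, log2 values were computed without a pseudocount. With 1 array a group, medians, quartiles and counts past fixed folds of 2, 8 and 32 were given, with no p-value, and the number of arrays limits the precision. The 242 tags, the runs of numbers and the rules were chosen with earlier results of these data known. The rule for named tags took, among those whose mean log2 intensity reached the median over all features, the 2 furthest towards cells, the 2 furthest towards leaf (at least 2-fold, for which 0 qualified) and the 2 brightest in leaf within 2-fold. The alternatives were 4 scalings (loess span 0.4), a pseudocount of 16, 2 filters on dim features, a floor, folds of 1.5 and 3, means, and a division at 121. The tools were numpy 2.4.6, statsmodels 0.14.6, pandas 2.3.3 and matplotlib 3.10.9 under Python 3.11.15, and the code was tested on simulated data.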

Additional observations from a re-analysis of the deposited data

How the results depend on the processing

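There were no replicates to test against, so a value is called stable here if it kept its sign and stayed within 1.5 times. The count of tags at least 2-fold higher in cells (155) ran from 114, with Osconst as the centre, to 162, after quantile normalization. With other folds in place of 2 it was 186 at 1.5-fold and 124 at 3-fold. Among the higher-numbered tags it was 119 as deposited, 77 with Osconst as the centre and 123 after quantile normalization. At 1.5-fold and 3-fold those tags numbered 149 and 79. The median difference (-1.62) ran from -0.88 to -2.15, the last being the mean. With the Osconst median as the centre, the median difference was -0.88 and the leaf signal kept was 54.3%. The count towards leaf (1) became 3 with the median of all features as the centre, 8 with that of Osconst, 4 after loess, 4 at 1.5-fold and 0 at 3-fold. Among the higher-numbered tags it was 8 as deposited and, in the same order, 13, 24, 19, 18 and 2. The count of tags at least 8-fold higher in cells (64) ran from 47, with Osconst as the centre, to 68; among the higher-numbered tags it was 31 as deposited, 14 with Osconst as the centre, and 20 after loess and with the floor, and among all features it was 98 as deposited and 62 with Osconst as the centre. The gap to the higher-numbered OsSC tags (-0.64) was -0.43 within quartile classes of the cell array and -1.30 within those of the leaf array, both added after seeing the data, and ran from -0.57 to -0.92 under all the others run. OsSC6 turned to 0.081 with all features as the centre and 0.57 with Osconst, and OsSC7 to -0.16 after quantile normalization. Apart from the constant that centring adds, the cause was not tested. No paired analysis was possible because each group has 1 array. Leaving out an array was not possible either. It is unknown which signals exceed background, and 74 of the tags (30.6%) were dim in leaf. So were 86 of the higher-numbered tags (35.5%) and, by definition, 25% of all features.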
